A study of Mus musculus with 15 samples.

Results

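Epithelial-mesenchymal transition genes were examined as 10 named members of the 55359 genes in the deposited matrix: the epithelial markers Cdh1 and Epcam, the mesenchymal markers Cdh2 and Vim, and the transcription factors Zeb1, Zeb2, Snai1, Snai2, Twist1 and Twist2. They were chosen by name and role, with earlier results of these data known, and all 10 passed the filter on low values in each comparison. In comparisons with 57SCLC_cell, Zeb1, Zeb2, Snai2, Twist1 and Twist2 passed it only through the other groups. RNA was sequenced from 15 mouse samples in 5 groups of 3. The line 46LCNEC (46LCNEC_cell, dishes A, B and C, adherent) was derived from a lung large cell neuroendocrine carcinoma raised in a QKO mouse by intratracheal Ad-CMVcre, and the line 57SCLC (57SCLC_cell, flasks A, B and C, in suspension, passage 11) from a small cell lung carcinoma raised by Ad-K5cre. QKO mice carry floxed alleles that include Rb1 and Trp53 on an Rbl1-null background, which the hosts share. Subcutaneous injection of each line into syngeneic QKO mice gave the allografts 46LCNEC_allo (tumors 312, 319 and 321) and 57SCLC_allo (tumors 275, 316 and 317), and normal lung (Lung, CT3, CT4 and CT5) came from littermates of the hosts.

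Each tumor type was represented by 1 line. Line, tumor type, the promoter that drove Cre, passage (later for 46LCNEC) and growth in suspension or as a monolayer cannot be told apart. The dishes and flasks are samples of 1 culture line, and p-values between the lines measure only the spread between such samples. Flasks A and B of 57SCLC_cell were closer to each other than any other replicate pair, with a chi-square per degree of freedom of 2.80 against 127 to 144 for each of them with flask C. The depth ranged from 9480244 reads in tumor 275 to 44876572 in flask C. Of 8 neuroendocrine markers, all were present in the 57SCLC samples. In the 46LCNEC samples Ncam1 was between 3058 and 31510.0 normalized counts. The other 7 were at most 15.5 in the cells and 18.5 in the tumors. Those libraries carry the LCNEC name by label, with Ncam1 alone high among these RNA markers. By protein, the authors reported NCAM, SSTR2 and CGRP in cells of the lines. In the LCNEC allografts they reported chromogranin A staining and a large cell morphology.

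In the epithelial-mesenchymal transition, epithelial cells lose the junctions that hold them together and take on the shape and motility of mesenchymal cells. The zinc-finger factors of the Zeb and Snail families repress epithelial genes such as Cdh1 by binding E-boxes in their promoters, and the basic helix-loop-helix Twist factors act in the same programme. In lung neuroendocrine carcinoma, tumors that keep the neuroendocrine programme commonly keep epithelial genes, whereas variants that have lost it often carry mesenchymal ones. Fibroblasts, endothelial cells and leukocytes of normal tissue also express Vim and several of these factors.

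The promoter table held 6 of the 10 members, without Cdh1, Cdh2, Zeb1 and Snai2, which were not searched. The promoters of Epcam and Snai1 are shown since, of those 6, they are the members whose 250 upstream bases hold an E-box of the form CACCTG or its reverse complement CAGGTG, the form that Zeb and Snail proteins are known to bind. The sequences are from the RefSeq promoter table of GRCm38.p6 and were placed on GRCm39 by an exact match. Capitals mark the E-boxes.
Epcam, chr17:87943157-87943406, plus strand: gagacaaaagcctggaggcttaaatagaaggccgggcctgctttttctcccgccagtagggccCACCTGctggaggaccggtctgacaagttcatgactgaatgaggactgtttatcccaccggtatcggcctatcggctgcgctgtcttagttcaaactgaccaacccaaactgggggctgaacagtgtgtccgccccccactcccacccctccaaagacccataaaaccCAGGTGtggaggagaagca
Snai1, chr2:167379865-167380114, plus strand: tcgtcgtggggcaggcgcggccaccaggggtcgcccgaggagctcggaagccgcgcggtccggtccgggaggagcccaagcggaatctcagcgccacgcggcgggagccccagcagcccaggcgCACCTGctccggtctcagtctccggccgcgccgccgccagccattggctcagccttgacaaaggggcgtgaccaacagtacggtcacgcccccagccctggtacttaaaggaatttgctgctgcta
The Epcam promoter held 2 such E-boxes, at 187 to 182 and 19 to 14 bases before the annotated start, and the Snai1 promoter held 1, at 126 to 121 bases. The promoters of Vim, Zeb2, Twist1 and Twist2 in the table held none in this window. Of the 32851 promoters in the table, 17.2% held at least 1 match and 2.06% at least 2, counted over both strands. A match of 6 letters is a description of the sequence and not a bound site.

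Cdh1 (ENSMUSG00000000303, GRCm39 chromosome 8, 107329941 to 107396880, plus strand) encodes E-cadherin, the adhesion molecule of epithelial junctions. It was at 161, 172 and 161 normalized counts in dishes A, B and C of 46LCNEC_cell and at 74.2, 22.1 and 136 in tumors 312, 319 and 321 of 46LCNEC_allo. In 57SCLC it was at 21931, 21734 and 17754 in the flasks and at 18679, 20444 and 17662 in tumors 275, 316 and 317. Both forms of the SCLC line overlapped each other and lay above normal lung, where Cdh1 was at 9697, 12251 and 12444, and both forms of 46LCNEC lay below every other sample.

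Epcam (ENSMUSG00000045394, chromosome 17, 87943407 to 87958557, plus strand), which encodes an epithelial cell adhesion molecule, was likewise highest in 57SCLC and lowest in 46LCNEC. Its normalized counts were 17.8, 24.3 and 20.8 in 46LCNEC_cell and 10.6, 103 and 33.2 in 46LCNEC_allo, with tumor 319 the highest there although it had the lowest Cdh1. They were 12782, 12842 and 13779.8 in 57SCLC_cell and 14296, 13751 and 13007 in 57SCLC_allo. In lung Epcam was at 1549, 1992 and 1999, above all 46LCNEC samples and below all 57SCLC samples.

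Cdh2 (ENSMUSG00000024304, chromosome 18, 16700793 to 16942381, minus strand) encodes N-cadherin, a cadherin of neural and mesenchymal cells. It was at 2879, 2665 and 2888 normalized counts in 46LCNEC_cell and at 419.9, 567 and 729 in 46LCNEC_allo. It was at 1704, 1670.0 and 2278 in 57SCLC_cell and at 986, 1478 and 1138 in 57SCLC_allo. Unlike the other 9 members, Cdh2 was above the lung samples (68.0, 51.9 and 21.1) in every sample of both lines and both forms of growth, without overlap.

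Vim (ENSMUSG00000026728, chromosome 2, 13578738 to 13587639, plus strand) encodes vimentin, the intermediate filament of mesenchymal cells. It was at 101977, 101345 and 118251 normalized counts in 46LCNEC_cell and at 68908, 63891 and 67342 in 46LCNEC_allo. It was at 10.4, 16.3 and 18.8 in 57SCLC_cell, and at 10686, 6043 and 11102 in 57SCLC_allo. The SCLC flasks were thus the only samples with Vim near 0, since lung had 22223, 21163 and 23111, and the 5 groups did not overlap.

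The members of the Zeb family are zinc-finger homeobox repressors. Zeb1 (ENSMUSG00000024238, chromosome 18, 5591851 to 5775467, plus strand) was at 2161, 2205 and 2203 normalized counts in 46LCNEC_cell, at 7053, 5967 and 6727 in 46LCNEC_allo and at 6543, 5889 and 6486 in lung. It was at 8.18, 1.81 and 7.29 in 57SCLC_cell and at 431, 394 and 587 in 57SCLC_allo. The LCNEC tumors and lung overlapped, and the SCLC flasks were the lowest samples. The antisense gene Zeb1os1, at up to 398 normalized counts in a sample, overlaps Zeb1 on the other strand, and as the strand setting of the counting is not given in the sources used here, their reads cannot be told apart.

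Zeb2 (ENSMUSG00000026872, chromosome 2, 44873644 to 45007464, minus strand) was at 3306, 3201 and 3214 normalized counts in 46LCNEC_cell, at 5816, 5945 and 6689.5 in 46LCNEC_allo and at 6143, 6312 and 6878 in lung. It was listed at 0, 0 and 0.521 in 57SCLC_cell, which is 1 read in 3 flasks, and at 1836, 1046 and 1768 in 57SCLC_allo. The SCLC flasks did not overlap any other group.

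Snai1 and Snai2 encode the zinc-finger repressors Snail and Slug. Snai1 (ENSMUSG00000042821, chromosome 2, 167380113 to 167384734, plus strand) was at 1929, 1537 and 1672 normalized counts in 46LCNEC_cell, at 4407, 5427 and 2911 in 46LCNEC_allo and at 1128, 784 and 979.8 in lung. It was at 54.5, 47.0 and 28.7 in 57SCLC_cell and at 306, 208 and 340.4 in 57SCLC_allo. Per kb of exon it was the highest of the 6 factors in the SCLC flasks, at 26.8 ± 8.21 normalized counts (SD, n = 3), and no 2 groups overlapped.

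Snai2 (ENSMUSG00000022676, chromosome 16, 14523425 to 14527252, plus strand) was at 664, 604 and 507 normalized counts in 46LCNEC_cell, at 987, 777 and 633 in 46LCNEC_allo and at 573, 405 and 555 in lung. It was at 3.27, 4.22 and 4.17 in 57SCLC_cell and at 127, 59.5 and 129 in 57SCLC_allo. Its levels in the LCNEC cells overlapped those of the LCNEC tumors and of lung. The LCNEC tumors lay above lung without overlap, and the SCLC samples lay below all of them.

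Twist1 and Twist2 encode basic helix-loop-helix factors of embryonic mesoderm. Twist1 (ENSMUSG00000035799, chromosome 12, 34007645 to 34009828, plus strand) was at 2423, 2182 and 2090.4 normalized counts in 46LCNEC_cell, at 5547, 4317 and 4594 in 46LCNEC_allo and at 35.1, 29.9 and 10.5 in lung. It was at 0.545, 0 and 2.08 in 57SCLC_cell and at 455, 199.6 and 356 in 57SCLC_allo. In lung Twist1 lay below the tumors of both lines and above the SCLC flasks, without overlap.

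Twist2 (ENSMUSG00000007805, chromosome 1, 91729176 to 91796542, plus strand) was at 270.2, 315 and 299 normalized counts in 46LCNEC_cell, at 396, 284 and 455 in 46LCNEC_allo and at 59.8, 95.7 and 70.2 in lung. It was listed at 0, 0 and 0.521 in 57SCLC_cell, again 1 read in 3 flasks, and at 59.8, 28.3 and 45.4 in 57SCLC_allo, where tumor 275 overlapped the lowest lung sample. Its LCNEC cells and tumors overlapped. The opposite-strand gene Gm29100, at up to 60.9 normalized counts, overlaps Twist2.

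**Figure D1:**
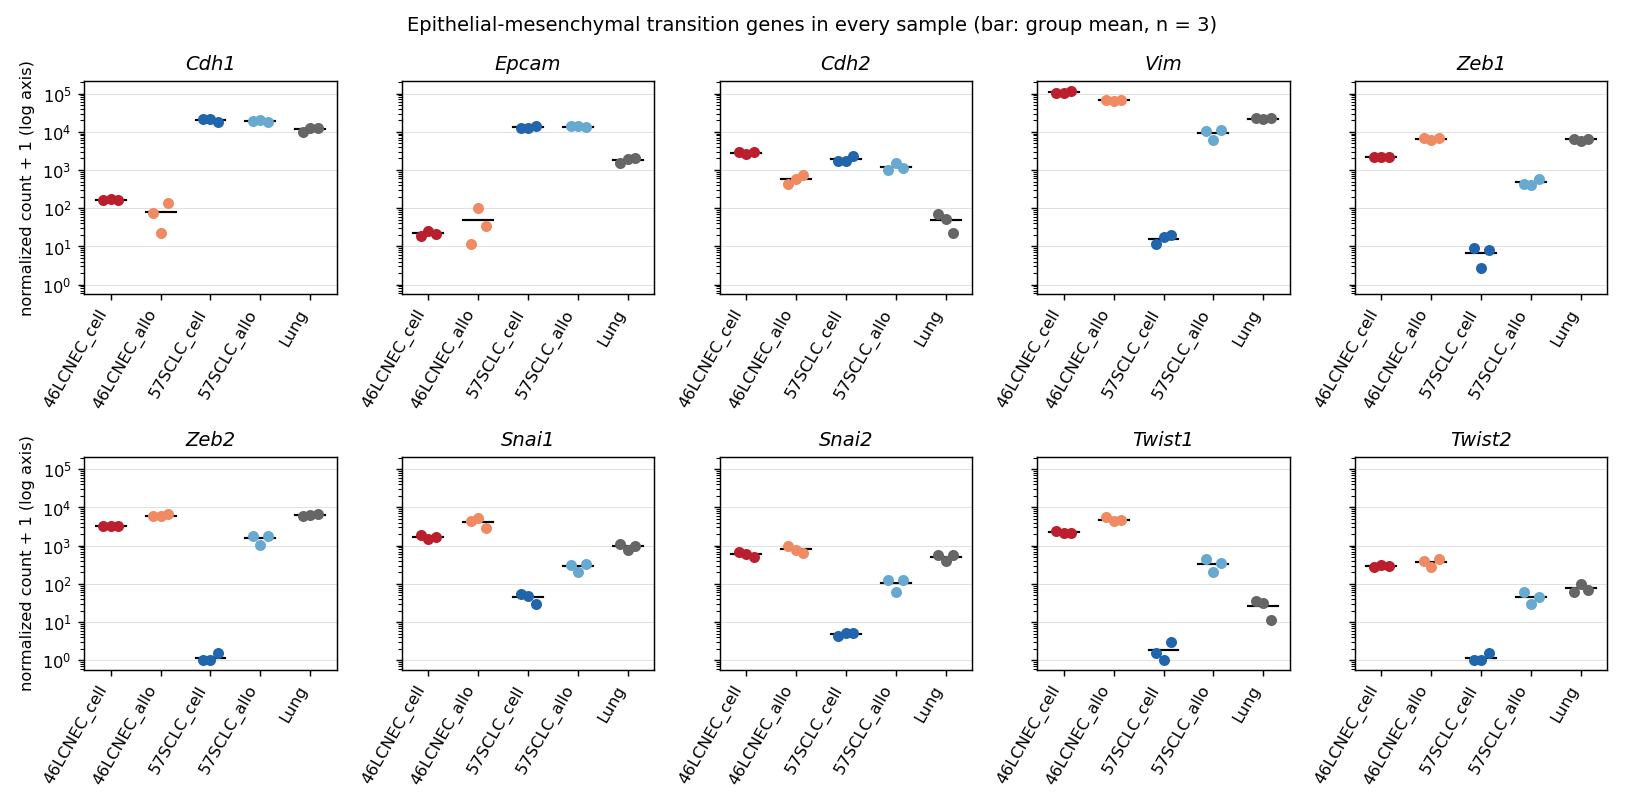
Normalized count + 1 (log axis) of the 10 genes in each of 15 samples, by group; points are samples and bars are group means (n = 3). Cdh1 and Epcam were high in the SCLC line and low in the LCNEC line, and Vim and the 6 transcription factors were the reverse, with intermediate values in the SCLC tumors.

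Levels of different genes were compared as normalized counts per kb of exon. On this scale Vim was the most abundant member in 46LCNEC_cell (22557 ± 2017 per kb, SD, n = 3), followed by Twist1 (1350.2 ± 104) and Snai1 (1055 ± 123). In 57SCLC_cell Epcam (5077 ± 216 per kb) and Cdh1 (4414 ± 508) led, and Cdh2 (217 ± 39.4) was the only other member above 100 per kb. The cadherins traded places between the lines. Per kb, Cdh2 exceeded Cdh1 by 8.28 to 9.57 times in 46LCNEC_cell and by 2.87 to 13.7 times in 46LCNEC_allo. Cdh1 exceeded Cdh2 by 14.6 to 24.3 times in 57SCLC_cell, by 25.9 to 35.4 times in 57SCLC_allo and by 266 to 1104 times in lung.

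**Figure D2:**
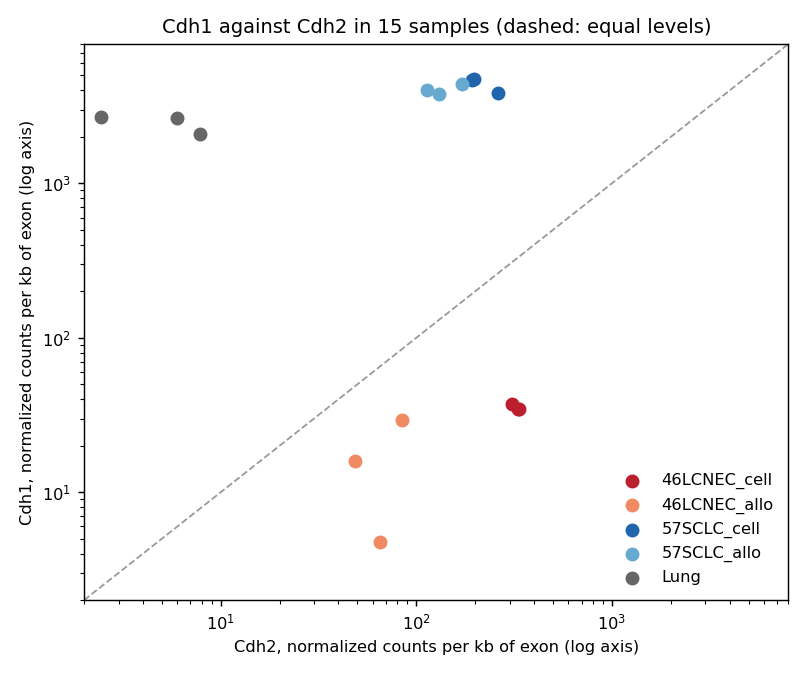
Cdh1 against Cdh2 in normalized counts per kb of exon (both log axes), 1 point per sample, colored by group; the dashed line marks equal levels. All 6 LCNEC samples lie below the line, the 6 SCLC samples and the 3 lung samples lie above it, and lung stands apart by its low Cdh2.

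To ask how the lines differed in culture, 57SCLC_cell was compared with 46LCNEC_cell. A gene was called at an adjusted p of at most 0.01 and a change of at least 2-fold in limma, on log2(normalized count + 1). Of the 10 members, 2 were called higher and 7 lower in 57SCLC_cell, where 23.9% of the 16920 genes tested were called higher and 22.2% lower. Cdh1 was 124-fold higher (log2 fold change 6.94 ± 0.10, SE, limma adjusted p = 3.4e-09) and Epcam 627-fold higher (9.23 ± 0.12, limma adjusted p = 3.4e-09). Vim was 7082-fold higher in 46LCNEC_cell (log2 fold change -12.73 ± 0.19, limma adjusted p = 3.5e-09). Cdh2 was not called: it was 1.49-fold higher in 46LCNEC_cell (log2 fold change -0.59 ± 0.12, limma adjusted p = 0.0027), without overlap of the groups but under the required fold.

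The 6 transcription factors were all called lower in 57SCLC_cell, with log2 fold changes from -5.31 (Snai1) to -11.46 (Zeb2) and a median of -8.26, against a median of 0.00028 over all genes tested. With so few reads in the flasks, the ratio of Zeb2 between the lines (17531 over the reads of each group) had a 95% interval from 3146 to 692502. That of Twist2 was 1590.4 (285 to 62883) and that of Twist1, with 5 reads in the flasks, was 2407 (1031 to 7415). These exact intervals cover counting error only. For Zeb1 and Snai2 the group means differed by 380.0-fold and 152-fold, and for Snai1 by 39.5-fold.

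The allografts of the lines were compared in the same way. All 10 members were called, 3 higher and 7 lower in 57SCLC_allo, where 16.1% of the 17502 genes tested were called higher and 14.2% lower. Cdh1 was 244-fold and Epcam 279-fold higher (log2 fold changes 8.25 ± 0.59 and 8.63 ± 0.72, SE, limma adjusted p = 6.2e-05 and 0.00011). Vim was 7.19-fold higher in 46LCNEC_allo (log2 fold change -2.90 ± 0.25, limma adjusted p = 0.00012). The factors ranged from -2.03 (Zeb2) to -3.91 (Twist1) in log2 fold change, with a median of -3.46. Cdh2, which was slightly higher in 46LCNEC in culture, was 2.10-fold higher in 57SCLC_allo (log2 fold change 1.08 ± 0.24, limma adjusted p = 0.0082). That call was lost without tumor 312, 319, 275, 316 or 317, with an adjusted p between 0.017 and 0.033, and with upper quartile scaling or 1 model over all 15 samples (adjusted p = 0.010 in each). Without tumor 312 or 316 the change was also under 2-fold (log2 fold change 0.88 and 0.92).

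**Figure D3:**
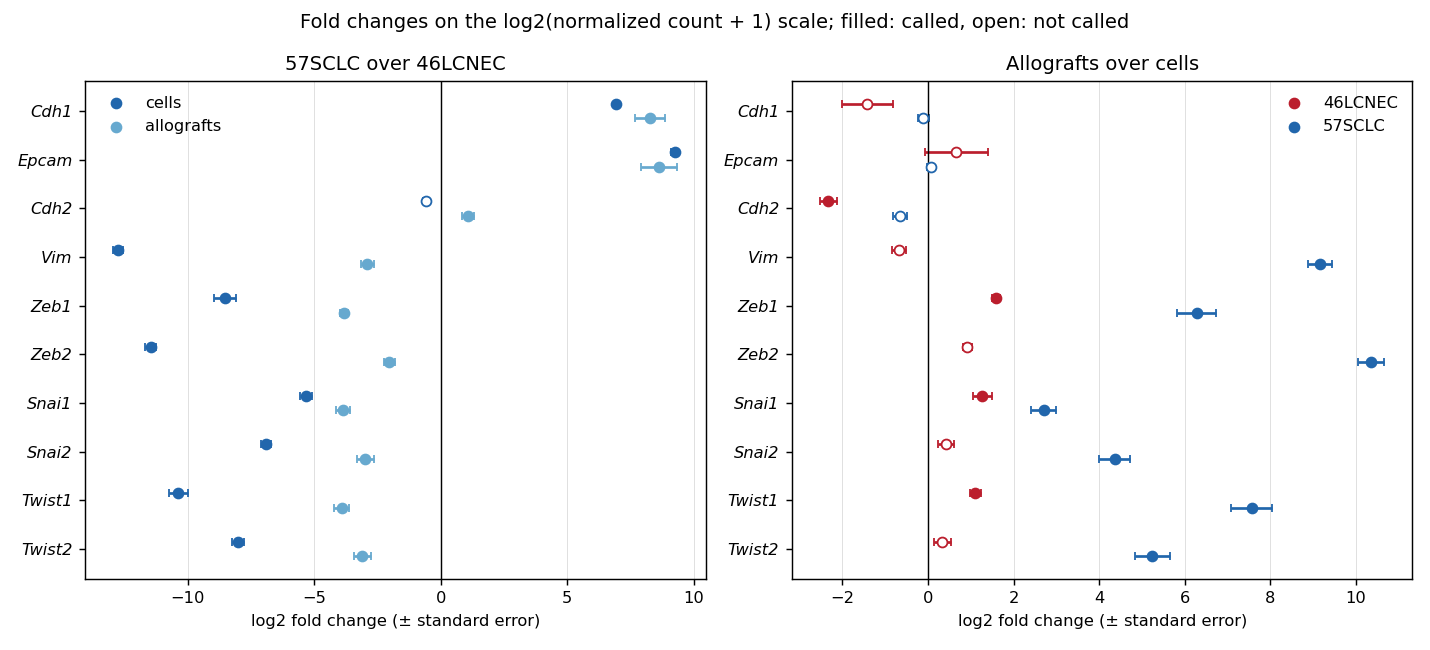
Log2 fold changes ± standard error of the 10 genes on the log2(normalized count + 1) scale, for 57SCLC over 46LCNEC in cells and in allografts (left) and for allografts over cells in each line (right); filled points were called and open points were not. Vim and the factors were lower in 57SCLC in both forms of growth, with smaller differences in the allografts, and Cdh1 and Epcam stayed near 0 between the SCLC allografts and cells.

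Allografts were then compared with the cells they grew from. In 57SCLC, 7 of the 10 members were called higher in the tumors and 3 were not called, where 14.4% of the 17078 genes tested were called higher and 2.29% lower. Vim was 613-fold higher in 57SCLC_allo than in 57SCLC_cell (log2 fold change 9.15 ± 0.28, SE, limma adjusted p = 3.1e-07). The factors rose by 2.71 (Snai1), 4.36 (Snai2), 5.24 (Twist2), 6.28 (Zeb1), 7.57 (Twist1) and 10.35 (Zeb2) on the log2 scale. The ratio over reads was 8267 (95% interval 1483 to 326617) for Zeb2 and 229 (40.1 to 9163) for Twist2. Cdh1 and Epcam were not called, with log2 fold changes of -0.11 ± 0.12 and 0.06 ± 0.09 (limma adjusted p = 0.51 and 0.64), and Cdh2 was at -0.66 ± 0.17 (limma adjusted p = 0.018).

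Markers of other cells moved with this comparison. The summed normalized count of 8 fibroblast markers was between 61.6 and 65.7 in 57SCLC_cell, with Dcn, Lum, Col6a3, Col15a1 and Dpt at or under 3 reads in each flask, and between 8310 and 14880 in 57SCLC_allo, where all 8 were above 3 reads. The leukocyte sum went from 285 to 311 in the flasks to 9008 to 14896 in the tumors. Ptprc, Adgre1 and Cd3e were at or under 3 reads in each flask, and Itgam was listed at 0 in all 15 samples. The endothelial sum went from 7179 to 7867 to 10887 to 11309, of which Vwf, present in the flasks at 7072 to 7724, was the most, while Cdh5, Kdr, Cldn5 and Emcn were at or under 3 reads in the flasks. Tumor 316 had the lowest value of the 3 tumors for Vim and each of the 6 factors (7 of 7). It was also the lowest for 5 of 8 fibroblast, 6 of 8 endothelial and 6 of 7 detected leukocyte markers, although its endothelial sum was the highest of the 3 (11309). Vwf, at 6628 to 8295 normalized counts in these tumors, made up most of that sum. Among the LCNEC tumors, tumor 319 was the lowest for 4 of 7 of these members, 7 of 8 endothelial and 5 of 7 leukocyte markers. It was the lowest for 3 of 8 fibroblast markers and had the highest fibroblast sum (172922). In bulk tissue, a larger number of such cells and more RNA per cell cannot be told apart, and the part of host cells in the rise of Vim and the factors was not tested.

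**Figure D4:**
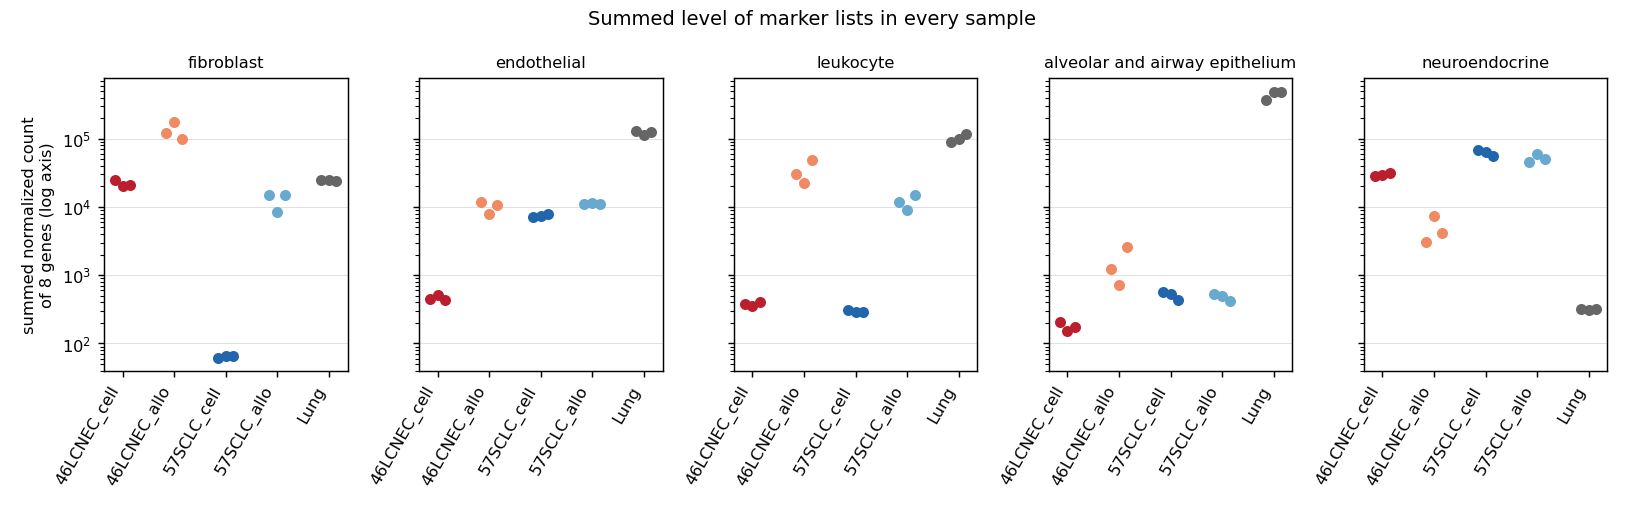
Summed normalized count (log axis) of 5 lists of 8 marker genes in each of 15 samples, by group. In the SCLC line the fibroblast and leukocyte sums were higher in all 3 tumors than in all 3 flasks, and the neuroendocrine sum overlapped between them.

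In 46LCNEC, 3 members were called higher and 1 lower in the allografts, where 14.4% of the 16375 genes tested were called higher and 8.45% lower. Zeb1 rose by 1.58 ± 0.10 (SE, limma adjusted p = 2.9e-05), Snai1 by 1.27 ± 0.22 (limma adjusted p = 0.0029) and Twist1 by 1.10 ± 0.12 (limma adjusted p = 0.00039) on the log2 scale. Cdh2 fell to 572 ± 155 from 2811 ± 126 normalized counts (SD, n = 3), a log2 fold change of -2.33 ± 0.19 (SE, limma adjusted p = 0.00011). Vim was 1.61-fold higher in the cells and was not called (log2 fold change -0.68 ± 0.17, limma adjusted p = 0.013), and Zeb2 fell just short of the fold (0.92 ± 0.09, limma adjusted p = 0.00026). Snai2, Twist2 and Epcam overlapped between the groups. Without tumor 312, 2 members were called, since Snai1 had an adjusted p of 0.010 and Twist1 a log2 fold change of 0.999. Snai1 was also lost without dish A, B or C (adjusted p between 0.011 and 0.016), and Twist1 in 1 model over all 15 samples (adjusted p = 0.049).

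The fibroblast sum of 46LCNEC was 20593 to 25215 in the cells, where Lum and Dpt were at or under 3 reads, and 100237 to 172922 in the tumors. In the cells Pdgfrb was at 6129 to 6718, Col6a3 at 9775 to 13725 and Col15a1 at 3317 to 3503 normalized counts. In lung these 3 were at 5126 to 5439, 4551 to 6436 and 322 to 369. The other 5 (Pdgfra, Dcn, Lum, Dpt and Pi16) were below lung without overlap. Pdgfra was at 1136 to 1270 in the cells and 7902 to 8440 in lung, and Dcn at 8.44 to 13.8 and 2105 to 3168. Of the 8 markers, 2 were called higher and 5 lower in the cells than in lung (against 20.6% and 35% of all genes tested). The leukocyte sum rose from 352 to 407 in the cells to 22157 to 48777 in the tumors, and the endothelial sum from 428 to 515 to 7928 to 11852. The dishes themselves had Vim and all 6 factors above 100 normalized counts, without a host. The part of host cells in the changes of Zeb1, Snai1 and Twist1 was not tested.

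Whether the lines differed to another extent as allografts than in culture was tested with an interaction term over the 12 samples, where 10.8% of the 18440 genes tested were called higher and 6.78% lower. It was called higher for 7 members: Cdh2, Vim, Zeb1, Zeb2, Snai2, Twist1 and Twist2. The change was 9.83 ± 0.33 for Vim (SE, limma adjusted p = 3.6e-09) and 9.43 ± 0.31 for Zeb2 (limma adjusted p = 3.4e-09) on the log2 scale, so the gap between the lines was narrower in the tumors. For Snai1 it was 1.44 ± 0.39 and not called (limma adjusted p = 0.013), for Cdh1 1.31 ± 0.64 (limma adjusted p = 0.13) and for Epcam -0.61 ± 0.77 (limma adjusted p = 0.57).

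Each of the 4 groups was also set against normal lung, and these comparisons share the 3 lung samples. In 46LCNEC_cell, 4 members were called higher and 3 lower, where 20.6% of 18142 genes were called higher and 35% lower. Twist1 was 88.6-fold, Cdh2 59.8-fold, Vim 4.84-fold and Twist2 3.91-fold higher than in lung, and Cdh1 was 69.5-fold, Epcam 88.1-fold and Zeb1 2.88-fold lower. In 46LCNEC_allo, 5 were called higher (Twist1, Cdh2, Twist2, Snai1 and Vim) and 2 lower (Cdh1 and Epcam), where 13.4% of 18033 genes were called higher and 22.1% lower. Zeb1 and Zeb2 differed from lung by log2 fold changes of 0.06 ± 0.10 and -0.07 ± 0.10 in these tumors (SE, limma adjusted p = 0.64 and 0.57).

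In 57SCLC_cell, Epcam (7.11-fold) and Cdh2 (40.1-fold) were called higher than in lung and 7 members lower, where 21.1% of 18467 genes were called higher and 32.7% lower. Vim was 1465-fold and Zeb1 1094-fold lower. In 57SCLC_allo, Epcam (7.41-fold), Cdh2 (25.6-fold) and Twist1 (13.4-fold) were called higher and Vim, Zeb1, Zeb2, Snai1 and Snai2 lower, where 18.9% of 18517 genes were called higher and 26.9% lower. Cdh1 was 1.79-fold higher than lung in the cells and 1.65-fold in the tumors and was called in neither, though library size scaling brought it past the fold in the cells (log2 fold change 1.07). Lung holds many cell types besides epithelium: its endothelial sum was 111727 to 129025 and its leukocyte sum 89791 to 118049. The part of these cells in the bulk lung levels of the members, Cdh1 and Epcam included, was not tested.

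Other genes of the same programmes were read from lists chosen by name and role. Some of these genes passed the filter on low values only through the group where they were high. The counts and medians below include them. Of 20 other epithelial genes, 19 were called higher in 57SCLC_cell than in 46LCNEC_cell and 1 lower, with a median log2 fold change of 8.36. Over all genes tested, 23.9% were called higher and 22.2% lower in this comparison. The tight junction gene Cldn3 (log2 fold change 12.41 ± 0.37) and the keratin gene Krt8 (10.72 ± 0.15) had the largest differences of the list. Both were near 0 in 46LCNEC_cell, at 0 to 1.88 and 1.88 to 2.31 normalized counts. The exception was Krt19, a simple epithelial keratin, at 6425 to 7443 normalized counts in 46LCNEC_cell and 14.7 to 65.1 in 57SCLC_cell. Of 10 epithelial regulators, 9 were tested and 8 were called higher, among them the splicing regulator Esrp1 (11.38 ± 0.18) and Ovol1 (8.69 ± 0.32). Elf3 was listed at 0 in all samples.

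Of 20 other mesenchymal genes, 19 were called lower in 57SCLC_cell and 1 was not called, with a median log2 fold change of -9.58. The shares over all genes tested, for this list and those below, were 22.2% lower and 23.9% higher. Lox, which crosslinks collagen, was at -14.49 ± 0.44 and the matrix protein gene Sparc at -14.02 ± 0.46. In 57SCLC_cell they were at 1.56 to 9.65 and 1.56 to 9.27 normalized counts. Among 10 other transcription factors of the transition, 8 were tested, and Snai3 and Foxc2 were listed at 0 in all samples. Of the 8, 4 were called lower and 1 higher, with Hmga2 at -13.94 ± 0.21 and Klf8 at 1.69 ± 0.26. Among 10 genes of TGF-beta signalling, a known inducer of the transition, 7 were called lower, and the receptor gene Tgfbr2 was at 5906 to 6220 normalized counts in 46LCNEC_cell and 0.603 to 3.27 in 57SCLC_cell. Of 6 catenins, which anchor cadherins to the cytoskeleton, 3 were called higher and 2 lower, and the neural Ctnna2 had the largest difference (9.72 ± 0.57).

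Between the allografts, all 20 other epithelial genes and all 9 tested regulators were called higher in 57SCLC_allo, against 16.1% of all genes tested. Of the 20 mesenchymal genes 15 were called lower, and of the 10 TGF-beta genes 5, against 14.2% of all genes tested. The median of the mesenchymal list was -2.67 there against -9.58 in the cells. Between 57SCLC_allo and 57SCLC_cell, 18 of 20 mesenchymal genes (19 tested) were called higher, with a median of 9.20, against 14.4% of all genes tested. Col1a2, a fibrillar collagen gene, went from 1.04 to 3.62 normalized counts to 15174 to 23909.7. Of the 20 genes of the epithelial list, 3 were called higher (against 14.4% of all genes tested) and 17 were not called in that comparison. Fibrillar collagens are abundant in fibroblasts, whose marker sums are given above. The part of host cells in the rise of Col1a2 and the other mesenchymal genes was not tested.

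Between 46LCNEC_allo and 46LCNEC_cell, 10 of the 20 mesenchymal genes were called higher (against 14.4% of all genes tested), led by Cdh11 (4.87 ± 0.30) and Col3a1 (4.54 ± 0.35), and 3 lower (against 8.45%), led by Lox (-2.85 ± 0.20). Krt19 fell from 6425 to 7443 normalized counts in the dishes to 5.26 to 23.8 in the tumors (log2 fold change -9.13 ± 0.45, limma adjusted p = 1.2e-05). Of the other epithelial genes, Pkp3 (3.48 ± 0.76, limma adjusted p = 0.0072) and Tjp3 (2.04 ± 0.46, limma adjusted p = 0.0084) were called higher in the tumors. Both were low and passed the filter on low values only through the tumors. Pkp3 was at 1.54 to 5.63 normalized counts in the dishes and 16.8 to 129 in the tumors. Tjp3 was at 2.81 to 7.73 in the dishes and 16.8 to 30.5 in the tumors. In this comparison 9 of the 20 genes in the list passed that filter.

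**Figure D5:**
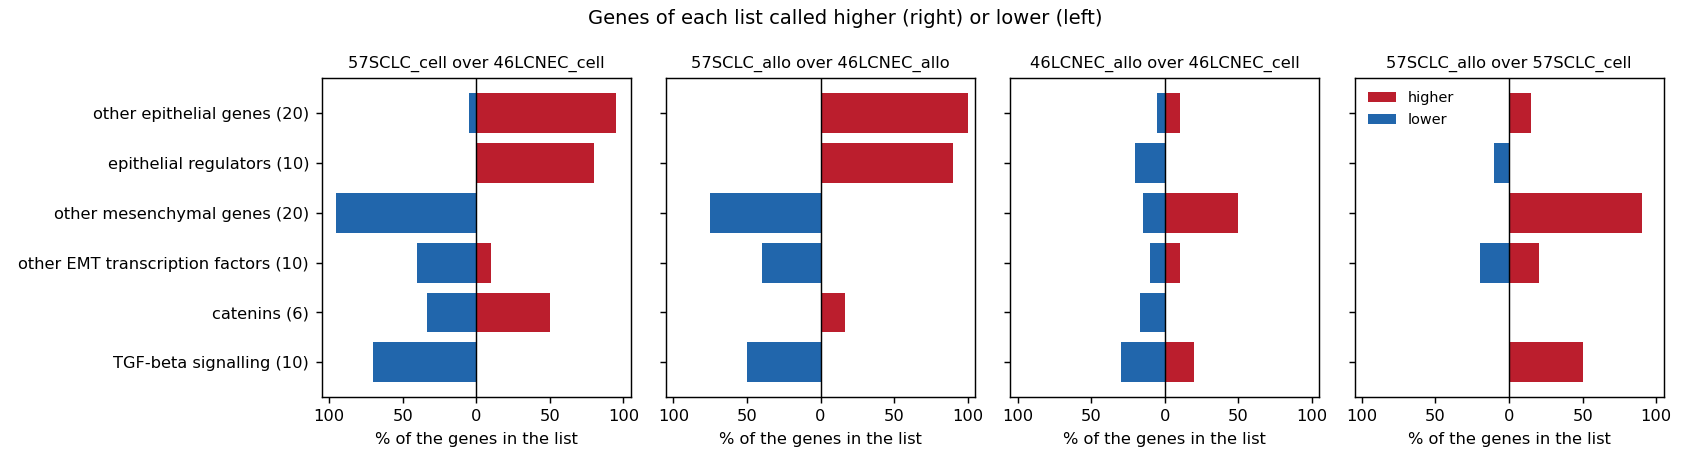
Percent of the genes of each list (list size in parentheses) called higher (right) or lower (left) in 4 comparisons. Epithelial genes and their regulators were higher and mesenchymal genes lower in 57SCLC than in 46LCNEC, and mesenchymal genes were higher in the SCLC allografts than in the SCLC cells.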

How the data were processed

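Poly-A RNA of 15 samples (5 groups of 3) was sequenced from both ends. Alignment by the authors used Rbowtie2 and the GRCm39 build, counting used featureCounts with GENCODE M27, and DESeq2 size factors then scaled each sample. The deposited values are therefore a signal, normalized counts, and not raw counts. The strand setting and the treatment of reads with several alignments are not given in the sources used here. Every non-zero value of a sample was a whole multiple of 1 step within 0.1, which gave back 100% whole reads and the depth of each sample.

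Groups were compared with limma 3.58.1 (R 4.3.3) with a mean-variance trend on log2(normalized count + 1), a scale that understates the change of genes near 0. Each comparison used its 6 samples (12 in the interaction) and kept genes that reached 10 normalized counts in 3 or more samples. A call needed an adjusted p (Benjamini-Hochberg, over all genes tested) no higher than 0.01 and a fold change of 2 or more. Values per kb used the summed exon length of GENCODE vM39, which also gave coordinates. Ratios over reads have exact binomial intervals (95%). The procedure was tested on simulated data.

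The alternatives were edgeR 4.0.16 and DESeq2 1.42.0 on the recovered reads, library size and upper quartile scaling, pseudocounts of 0.1 and 5, no filter, a looser adjusted p (0.05), 1 model over all 15 samples, each sample left out in turn, and a replicate block of the letters A, B and C. The planned test for raw counts was not the main one since the deposited values are normalized. The 10 members and all gene lists were chosen with earlier results of these data known. Named from each list are at most the 2 called genes with the largest difference in each direction, and for each member the 3 genes with the most similar profile. Not every allele of the QKO model is reported here. Python 3.11.15, numpy 2.4.6, pandas 2.3.3, scipy 1.17.1 and matplotlib 3.10.9 were used.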

Additional observations from a re-analysis of the deposited data

Results flagged for a closer look

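The difference between 57SCLC and 46LCNEC depended on the form of growth for 7 of the 10 genes, by the interaction term of limma over 12 samples. Of all 18440 genes tested, 10.8% were called higher and 6.78% lower by this term. On the log2(normalized count + 1) scale, allografts minus cells, it was 9.83 for Vim, 9.43 for Zeb2, 6.46 for Twist1, 4.91 for Twist2, 4.69 for Zeb1, 3.95 for Snai2 and 1.67 for Cdh2, with limma adjusted p-values from 3.4e-09 (Zeb2) to 0.00079 (Cdh2). For Vim and the 5 factors the lines were farther apart in culture than as tumors. For Cdh2 the order of the lines turned, from 1.49-fold higher in 46LCNEC_cell to 2.10-fold higher in 57SCLC_allo. The difference in culture was not called, and the call between the allografts was lost in 7 of 15 alternatives. The fibroblast, leukocyte and endothelial sums rose from cells to tumors in both lines, and their part in these values was not tested.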

How the results depend on the processing

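Over 1420 refits of 90 gene results, 1390 kept their direction and side of the threshold, 14 lost a call, 11 gained one and 5 changed sign, none of which was called in either fit. The 5 were Zeb2 in 46LCNEC_allo over Lung (0.0058 with edgeR), Zeb1 in the same comparison (-0.063 with upper quartile scaling), Epcam in 57SCLC_allo over 57SCLC_cell (-0.011 with upper quartile scaling), and, without tumor 319, Epcam in 46LCNEC_allo over 46LCNEC_cell (-0.13 to 1.45 over all samples left out in turn) and in the interaction (-1.39 to 0.19). Besides the losses given above, the interaction of Cdh2 was lost in 1 model over all 15 samples (adjusted p = 0.011). Calls were gained for Zeb2 in 46LCNEC_cell over Lung (4 of 15 alternatives), Snai1 in the interaction (5 of 21), Cdh1 in the interaction without tumor 321 and Cdh1 in 57SCLC_cell over Lung with library size scaling. The cause was not tested.

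Leaving out each sample in turn, the number of members called in 46LCNEC_allo over 46LCNEC_cell ranged from 2 to 4, and the lowest value was without tumor 312. Over all genes, leaving out dish C of 46LCNEC_cell lowered the calls of that comparison to 1659 higher and 769 lower, from 2355 and 1383. Library size scaling moved the median log2 fold change of all genes to 0.24 between the cell lines and to 0.28 between the allografts, where the calls went from 2821 higher and 2491 lower to 3576 and 1964. The same 9 members as without it were called between the cell lines with a replicate block. The letters A, B and C do not pair the samples (correlations 0.18, -0.19 and 0.00047). Counts of 1 to 5 reads in the SCLC flasks limit the folds of Zeb2, Twist1 and Twist2.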

Other observations

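Over the 15 samples, the genes with the profile most like each member (Pearson's r of log2(normalized count + 1) among 19616 genes) were Grhl2 for Cdh1 (0.995), Cux2 for Epcam (0.993), Lrp1 and Axl for Vim (0.999 and 0.997), Cpne8 for Zeb1 (0.998), Anpep for Zeb2 (0.998), Ppp1r18 for Snai1 (0.992), Tmem98 for Snai2 (0.996), Tbx18 for Twist1 (0.992) and Gpc4 for Twist2 (0.993). Samples of a group share their source, so these values describe the order of the 5 groups. Cdh2 stood apart, since its nearest genes were Atad5 (0.987), Pcna (0.984) and Rtel1 (0.983), which act in DNA replication and genome maintenance. Atad5 was at 2247 to 3014 normalized counts in 46LCNEC_cell, 906 to 1187 in 46LCNEC_allo, 2012 to 2484 in 57SCLC_cell, 1278 to 1941 in 57SCLC_allo and 152 to 171 in lung, which is the order of Cdh2. Tbx18 was listed at 0 in all 3 SCLC flasks and was at 102 to 171 in the 57SCLC tumors and 8.19 to 22.9 in lung, with the highest values, 900.5 to 1337, in 46LCNEC_allo.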
